A study of Rattus norvegicus with 6 samples.

Results

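Astrocyte transporter, pump and metabolic enzyme genes were followed in primary rat oligodendrocyte precursor cells with and without alpha-synuclein fibrils. The set was chosen by gene symbol and holds 9 genes of the 32662 in the deposited table: Slc1a2, Slc1a3, Slc4a4, Aqp4, Atp1b2, Aldh1l1, Ndrg2, Agt and Glul. Each symbol matched 1 row, and no other row of the table overlapped any of the 9 loci. The cells came from the cerebral cortex of Sprague-Dawley rats 1 to 2 days old. Mixed glia were first kept with 20% fetal bovine serum, and the precursors, taken as the cells that did not adhere, then grew for 4 to 5 days with PDGF and FGF (10 ng/ml each), 2% B27 and 2 mM glutamine, in both groups. The control group (3 libraries) received no fibrils, and the fibril group (3 libraries) met preformed fibrils of human alpha-synuclein for 72 hours. Alpha-synuclein is the protein deposited in oligodendrocytes in multiple system atrophy. The labels name no separate cultures or animals, so p-values cover no more than the variation among these libraries, which may be technical.

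In the cortex these genes belong to the housekeeping work of astrocytes. Slc1a2 (GLT-1) and Slc1a3 (GLAST) encode sodium-driven transporters that clear glutamate from the extracellular space, and Glul encodes glutamine synthetase, which turns that glutamate into glutamine for return to neurons. Slc4a4 encodes the sodium bicarbonate cotransporter NBCe1, Aqp4 the water channel of astrocyte endfeet, and Atp1b2 a beta subunit of the sodium pump whose gradient drives the other transporters. Aldh1l1 encodes a folate enzyme widely used as an astrocyte marker, Ndrg2 a cytoplasmic protein enriched in astrocytes, and Agt angiotensinogen, the precursor of the angiotensin peptides. Oligodendrocyte lineage cells also express several of them, Glul and Slc1a3 among these. Bulk RNA cannot tell fewer cells of a type apart from less RNA per cell.

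Levels are FPKM as deposited, a count of fragments corrected for the length of the gene and the size of the library. Depth is unknown. From ratios of values below 1 FPKM, the worth of 1 fragment was estimated at 4.03 times (control replicate 1) and 6.87 times (fibril replicate 1) that in control replicate 2. The other libraries lay at 0.818 to 1.95 times, so low values are coarsest in replicate 1. The mitochondrial share of summed FPKM was 80.3% in control replicate 1, 75.6% in fibril replicate 1 and at most 40.1% elsewhere. Since Hprt1 and Rps6, widely expressed genes, are also listed at 0 in each of the 6 columns, a 0 can be an estimate that failed. A gene at 0 in some library is given without a mean FPKM. Its 0 values still enter the log2 differences, the sums and the group means drawn in the figures.

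The promoters of 3 members are shown because these are the 3 most abundant members, all with every fibril library below every control library. RefSeq (GRCr8) listed promoter windows for 8 of the 9 genes. Each window runs from 250 bases before to 50 after a start site. Where RefSeq lists several starts, the window shown is the one whose distance to the gene's end was nearest to the length of the deposited locus. Capitals mark matches, on either strand, to the TATA box (TATAAA), the CCAAT box (CCAAT), the GC box (GGGCGG), a nuclear factor I motif (TTGGC) and a STAT site (TTCNNNGAA).
Slc1a3, chr2:59557738-59558037, minus strand: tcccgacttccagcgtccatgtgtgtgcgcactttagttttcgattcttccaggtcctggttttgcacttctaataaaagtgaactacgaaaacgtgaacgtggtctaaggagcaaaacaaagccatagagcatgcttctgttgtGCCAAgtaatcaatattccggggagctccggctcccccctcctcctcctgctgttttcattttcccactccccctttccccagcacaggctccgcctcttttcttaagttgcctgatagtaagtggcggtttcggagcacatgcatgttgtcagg
Glul, chr13:68575816-68576115, plus strand: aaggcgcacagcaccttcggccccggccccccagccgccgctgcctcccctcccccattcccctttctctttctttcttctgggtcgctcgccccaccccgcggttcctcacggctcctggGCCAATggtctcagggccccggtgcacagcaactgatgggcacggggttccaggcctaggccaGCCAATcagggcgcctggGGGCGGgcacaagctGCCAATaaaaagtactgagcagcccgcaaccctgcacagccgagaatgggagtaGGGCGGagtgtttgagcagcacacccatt
Atp1b2, chr10:54823659-54823958, minus strand: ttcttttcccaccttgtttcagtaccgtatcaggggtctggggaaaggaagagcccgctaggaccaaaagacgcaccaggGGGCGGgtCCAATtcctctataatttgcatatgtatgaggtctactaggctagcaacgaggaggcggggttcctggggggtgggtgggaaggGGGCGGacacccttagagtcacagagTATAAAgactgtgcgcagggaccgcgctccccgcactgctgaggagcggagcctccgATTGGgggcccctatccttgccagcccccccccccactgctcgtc

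The Glul window, with a GC content of 65.7%, held 3 CCAAT boxes, each overlapping a nuclear factor I motif, and 2 GC boxes. In Atp1b2 (60.3% GC) 1 TATA box, 2 CCAAT boxes and 2 GC boxes were found. Slc1a3, with as many G and C as A and T, had 1 nuclear factor I motif as its only match. None of these 3 windows held the STAT letters. Over all 33469 windows of this length, 14.2% held a TATA box, 37.5% a CCAAT box, 33.1% a GC box, 45.8% a nuclear factor I motif and 8.87% a STAT site. The median GC content of these windows was 51.7%. RefSeq's coordinates belong to GRCr8 and cannot be set beside the deposited ones, whose build is not named. The matches describe letters only, and no motif was common to all 3 windows.

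All 9 genes had lower means of log2(FPKM + 1) in the fibril libraries, by a median of 1.09 on the log2 scale with no filter on low values, although for Aldh1l1 (-0.18) and Agt (-0.007) the difference was small. Over the 15949 genes above 0 in any library, 53.1% had a negative difference and the median was -0.02. For 5 genes (Slc1a3, Slc4a4, Atp1b2, Ndrg2 and Glul) every fibril library was below every control library, against 4.7% of those 15949 genes (5.3% of the 10766 that passed the filter below). The summed level of the 9 genes was 162, 195 and 216 FPKM in control replicates 1, 2 and 3, and 70.7, 75.1 and 88.6 FPKM in the fibril replicates. No single gene passed the test over all genes. By limma on log2(FPKM + 1), the share of the 10766 tested genes past an adjusted p of 0.05 was 0.0% when no block was used and 0.111% with the replicate number as a block, 0 of them lower. These 9 genes were chosen with earlier results of these data known, so their shared direction is a description.

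In the control libraries the 9 genes spanned a wide range of levels, which FPKM, being per length, allows to be compared. Glul was highest at 59.8 ± 11.3 FPKM (SD, n = 3), then Slc1a3 at 49.5 ± 18.5 FPKM and Atp1b2 at 46.4 ± 7.80 FPKM. The control ranges of these 3 genes overlapped, so their order is within the spread. Ndrg2 followed at 21.0 ± 11.9 FPKM, and its range lay below those of Glul and Atp1b2 but overlapped that of Slc1a3. Slc1a2 ranged from 1.42 to 11.7 FPKM, Slc4a4 had 4.09 ± 0.972 FPKM and Aqp4 had 2.47 ± 2.31 FPKM, with overlapping ranges. Aldh1l1 and Agt stayed below 1 FPKM in every library. Glul was above 86.5% to 93.0% of the 10766 tested genes in the controls and above 73.6% to 81.1% with fibrils.

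**Figure D1:**
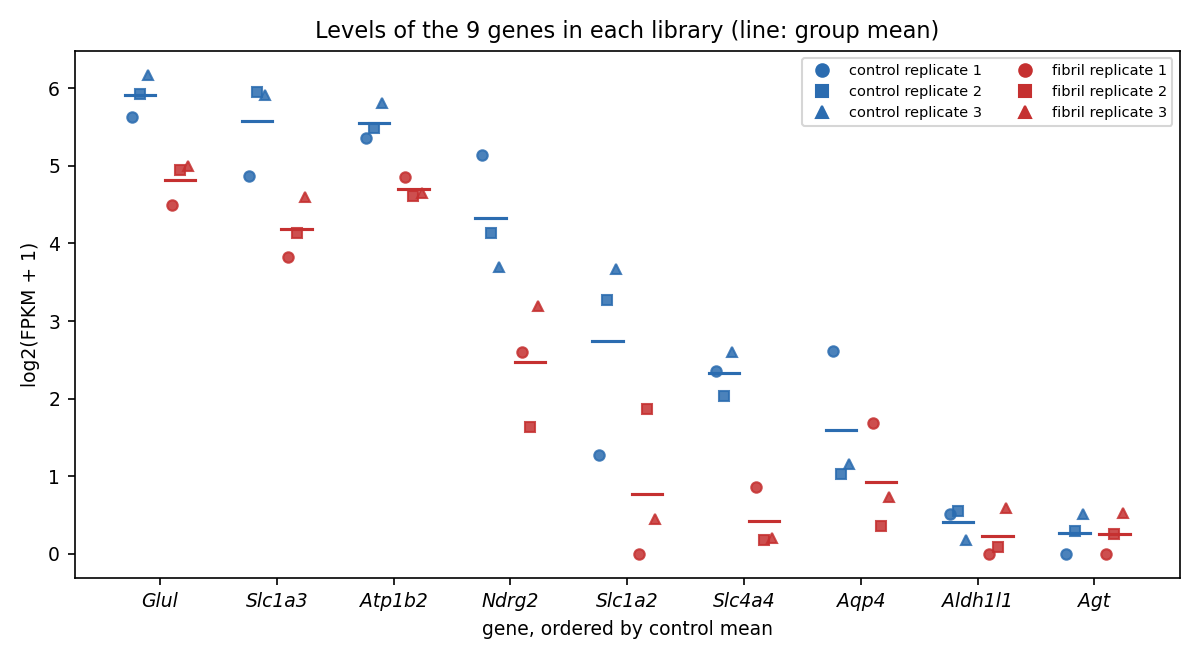
log2(FPKM + 1) of the 9 genes by library (control blue, fibril red, with 1 marker shape for each replicate number and a line at the group mean), ordered by control mean. All 3 fibril libraries lie below all 3 controls for Glul, Slc1a3, Atp1b2, Ndrg2 and Slc4a4, while the groups overlap for Slc1a2, Aqp4, Aldh1l1 and Agt.

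The 2 glutamate transporters were both lower with fibrils. Slc1a3 (ENSRNOG00000016163, chromosome 2, 57860833 to 57935363 as deposited, build not given in the sources used here) had 28.2, 60.9 and 59.4 FPKM in control replicates 1, 2 and 3. In the fibril replicates it had 13.1, 16.5 and 23.2 FPKM. The groups did not overlap, and the lowest control was replicate 1. The fibril mean was 35.6% of the control mean. The log2 difference was -1.40 (SE 0.45), with a limma adjusted p of 0.96 (0.219 with the block).

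Slc1a2 (ENSRNOG00000005479, chromosome 3, 92640751 to 92665644) varied more between libraries. Control values were 1.42, 8.65 and 11.7 FPKM. With fibrils they were 0, 2.64 and 0.361 FPKM. Each fibril library was below the control of the same number, but fibril replicate 2 lay above control replicate 1, so the groups overlapped. The log2 difference was -1.97 (SE 0.72), with a limma adjusted p of 0.96 (0.256 with the block). It was -3.43 at a pseudocount of 0.1 and -0.95 at one of 5. In units of the estimated worth of 1 fragment, control replicates 1, 2 and 3 stood at 1.90, 46.7 and 77.5 times fibril replicate 3, the lowest library above 0. The deposited locus spans 24893 bases, where RefSeq's GRCr8 model of the gene spans 130337, so how much of the transcript the values cover was not tested. Slc1a3 made up 95.2%, 87.6% and 83.5% of the summed FPKM of both transporters in controls and 100%, 86.2% and 98.5% with fibrils, with the groups overlapping.

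Glul (ENSRNOG00000049560, chromosome 13, 71331051 to 71340229), whose product uses the glutamate that both transporters take up, had 48.6, 59.7 and 71.2 FPKM in controls. The fibril libraries had 21.6, 29.7 and 31.1 FPKM. The groups did not overlap, and within replicates 1, 2 and 3 the fibril library held 44.5%, 49.8% and 43.7% of its control. That ratio varied less than for any of the other 6 tested genes of the set. The log2 difference was -1.09 (SE 0.38), with a limma adjusted p of 0.96 (0.331 with the block).

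Slc4a4 (ENSRNOG00000003134, chromosome 14, 20479322 to 20920286), the bicarbonate cotransporter, had the largest ratio of means. Its controls stood at 4.12, 3.11 and 5.05 FPKM. Its fibril libraries stood at 0.824, 0.132 and 0.154 FPKM, and the fibril mean was 9.04% of the control mean. Fibril replicate 1 was the highest of its group and also the library where 1 fragment was worth most. The log2 difference was -1.91 (SE 0.39), with the smallest p of the 9 genes (limma unadjusted p = 0.000889, adjusted p = 0.383, and 0.147 with the block). Of the 10766 tested genes, 24 had a smaller unadjusted p. The difference was -3.44 at a pseudocount of 0.1 and -0.76 at one of 5. Slc4a4 passed the filter through its control libraries alone, since all 3 fibril values were below 1 FPKM.

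Aqp4 (ENSRNOG00000016043, chromosome 18, 6765944 to 6782996), the water channel, had 5.13, 1.04 and 1.23 FPKM without fibrils and 2.21, 0.279 and 0.668 FPKM with them. Replicate 1 was the highest library of both groups, and the groups overlapped. The log2 difference of -0.68 (SE 0.55) had a limma adjusted p of 0.96 (0.509 with the block). It was -0.17 without control replicate 1, -0.38 under quantile normalization, and -1.19 and -0.27 at pseudocounts of 0.1 and 5.

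Atp1b2 (ENSRNOG00000011227, chromosome 10, 56205624 to 56211891), the sodium pump subunit, had 40.2, 43.9 and 55.2 FPKM in controls. With fibrils it had 27.9, 23.5 and 24.0 FPKM, 54.1% of the control mean. The groups did not overlap, and both were narrow. The log2 difference was -0.85 (SE 0.36), with a limma adjusted p of 0.96 (0.479 with the block). The difference was -0.51, -0.88 and -1.17 within replicates 1, 2 and 3.

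Ndrg2 (ENSRNOG00000010389, chromosome 15, 28305820 to 28314459) had 34.4, 16.6 and 11.9 FPKM in controls against 5.07, 2.10 and 8.18 FPKM with fibrils. The groups did not overlap, but the lowest control and the highest fibril library were both replicate 3. Within replicates 1, 2 and 3 the fibril library held 14.7%, 12.6% and 68.6% of its control. The log2 difference was -1.85 (SE 0.55), with a limma adjusted p of 0.96 (0.308 with the block). Leaving out fibril replicate 3 gave -2.21 and leaving out fibril replicate 2 gave -1.42.

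Aldh1l1 (ENSRNOG00000047023, chromosome 4, 123516787 to 123557501) and Agt (ENSRNOG00000018445, chromosome 19, 57321639 to 57333433) were below the filter of 1 FPKM in 3 libraries. Aldh1l1 had 0.424, 0.471 and 0.128 FPKM without fibrils and 0, 0.068 and 0.513 FPKM with them, with the highest value in fibril replicate 3. In units of the estimated worth of 1 fragment, its non-zero libraries stood at 2.01, 9.0 and 2.99 (controls) and 1 and 5.04 (fibril replicates 2 and 3) times the lowest. Agt was at 0 in both replicate 1 libraries, with 0.226 and 0.430 FPKM in the other controls and 0.196 and 0.443 FPKM in the other fibril libraries. Neither gene separated the groups at these levels.

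**Figure D2:**
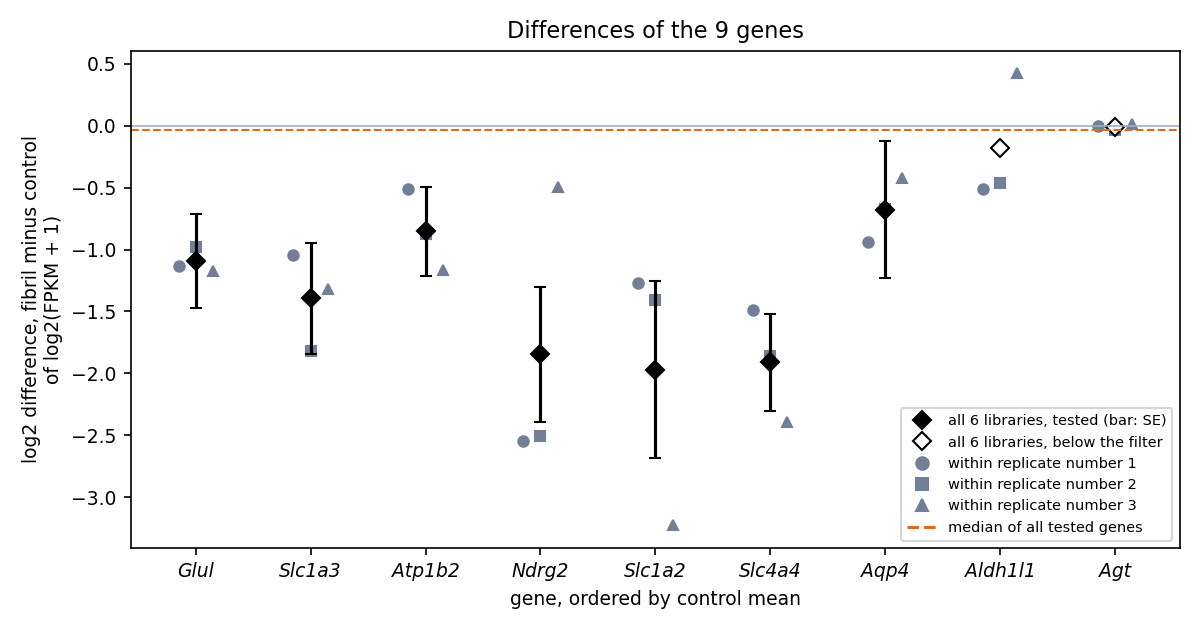
Log2 difference, fibril minus control, of log2(FPKM + 1) for each of the 9 genes. Black diamonds use all 6 libraries (bar, SE), open diamonds are the 2 genes below the filter, grey shapes show the same-numbered fibril and control library alone and the dashed line is the median of all tested genes (-0.04); 7 genes lie below 0 within every replicate number, while Aldh1l1 is at 0.42 within replicate 3.

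Of the 9 genes, 7 passed the filter. Among them 6 (all but Aqp4) had an unadjusted limma p under 0.05 in the lower direction, where 1.81% of tested genes did (4.97% with the block, also 6 of these genes). All 7 were lower in 3 of 3 replicate numbers, where 19.3% of tested genes were, and 5 had a log2 difference of -1 or lower, where 4.45% did. The filter itself favours a gene such as Slc4a4 that is high in 1 group only, so these counts are not support. The median difference of the 7 was -1.40, and -1.13, -1.41 and -1.17 within replicates 1, 2 and 3, beside 0.003, -0.04 and -0.05 for all tested genes. An exact two-sided permutation test on each gene gave p = 0.1 for Slc1a3, Slc4a4, Atp1b2, Ndrg2 and Glul, which is the smallest that 3 libraries against 3 allow. It gave exact permutation p-values of 0.2 for Slc1a2 and 0.4 for Aqp4.

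Scaling each library to the same total without mitochondrial genes left the same 5 genes without overlap, where 7.06% of all tested genes were then lower without overlap and 72.3% had a negative difference. On that scale the sum of the 9 genes was 145, 232 and 297 in controls and 59.2, 87.2 and 70.2 with fibrils. The median difference of the 7 tested genes was then -1.70, where the median of all tested genes was -0.30. The shift differed between genes, from -1.97 to -2.13 for Slc1a2 and from -1.40 to -1.70 for Slc1a3. The direction of the 7 genes was the same under each of the 17 alternative settings that tested them. Not all of these could change it: a replicate block, a term for replicate 1 or another filter leaves a gene's difference unchanged by construction.

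**Figure D3:**
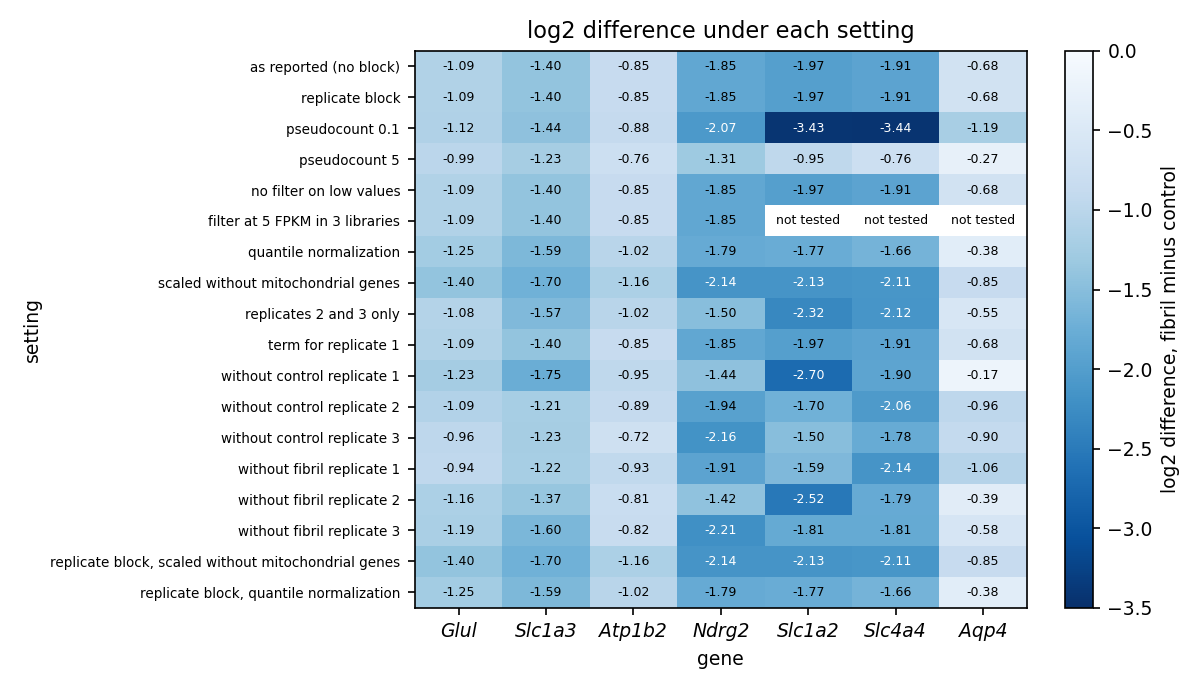
The 7 tested genes (columns) with their log2 difference, fibril minus control, as reported and under each of 17 alternative settings (rows), with darker blue for a more negative value. Every tested value is negative, from -3.44 (Slc4a4 at a pseudocount of 0.1) to -0.17 (Aqp4 without control replicate 1).

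Genes of neighbouring function were compared by lists, chosen with earlier results known. The glutamate and glutamine handling list had 14 tested genes of 18, with 7 higher, 7 lower, a median log2 difference of -0.07 and 0 past the threshold. Its smallest p-values belonged to Slc38a1, a glutamine transporter, and Gpt2, a mitochondrial alanine transaminase. Slc38a1 had 9.91, 14.4 and 25.0 FPKM without fibrils and 4.27, 11.5 and 2.71 FPKM with them, with overlap. Gpt2 had 21.5, 40.1 and 47.3 FPKM against 17.1, 20.6 and 11.9 FPKM, without overlap. The neuronal-type glutamate transporter gene Slc1a1, the third member of the family measured above 1 FPKM throughout with Slc1a3 and Slc1a4, was named after its values were seen. It had 53.5, 37.9 and 56.8 FPKM without fibrils and 64.5, 40.3 and 58.3 FPKM with them, a log2 difference of 0.13 (SE 0.40).

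The GABA and glycine list, which holds transporters of these inhibitory transmitters and enzymes that break them down, had 6 tested genes of 7. All 6 had a negative mean difference, with a median of -0.97 and 0 past the threshold. Abat and Gldc, the 2 enzymes, were not lower in every replicate number. Slc6a11 (GAT-3), the GABA transporter of astrocytes, had levels of 1.51, 8.64 and 10.9 FPKM without fibrils and 0, 1.86 and 0.442 FPKM with them, with overlap. Control replicate 1 was the lowest control, as for Slc1a2.

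Among sodium pump genes, 6 of 7 tested members of a list of 8 were lower, with a median of -0.26 and 0 past the threshold. Atp1b1, another beta subunit, had 15.1, 10.4 and 19.0 FPKM without fibrils and 8.57, 6.31 and 9.30 FPKM with them, without overlap.

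For bicarbonate and acid-base transport, 5 of 7 tested genes of 13 were lower, with a median of -0.62 and 0 past the threshold. Car2, the cytosolic carbonic anhydrase, had 8.28, 5.41 and 4.34 FPKM without fibrils and 3.11, 1.06 and 2.47 FPKM with them. Slc4a10, another sodium bicarbonate transporter, had 1.91, 3.33 and 4.79 FPKM against 1.21, 1.46 and 0.480 FPKM. Neither gene's groups overlapped. Aquaporin and endfoot scaffold genes were lower in 9 of 9 tested (of 14 listed), with a median of -0.66 and 0 past the threshold. Mlc1, a membrane protein of astrocyte junctions, had 4.13, 2.86 and 3.08 FPKM without fibrils and 0.677, 0.316 and 2.66 FPKM with them. Hepacam, its adhesion partner, had 10.6, 49.9 and 48.5 FPKM against 5.81, 21.9 and 11.2 FPKM, with overlap. Kcnj10, which encodes the potassium channel Kir4.1, was chosen after its values were seen and was lower in 2 of 3 replicate numbers.

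Of the one-carbon folate enzymes, the pathway of Aldh1l1, 8 of 10 tested genes of 13 had a positive difference, with a median of 0.21 and 0 past the threshold. Shmt2, the mitochondrial serine hydroxymethyltransferase, had 10.1, 24.1 and 29.2 FPKM without fibrils and 18.9, 32.3 and 54.5 FPKM with them. Mthfd2, a mitochondrial folate enzyme, had 3.67, 6.60 and 5.73 FPKM against 6.33, 6.41 and 12.5 FPKM. Both overlapped between groups. The 2 tested relatives of Ndrg2 showed small differences, -0.34 for Ndrg3 and -0.18 for Ndrg4. Ndrg1, the other relative listed, was below the filter and not tested. It had 0.197, 0.389 and 0.198 FPKM without fibrils and 0.340, 0.950 and 0.763 FPKM with them, with overlap. Of the angiotensin list around Agt, 1 of 11 genes was tested (Atp6ap2, 0.20). Over all 10766 tested genes 53.0% were negative. Whether any list differed from another was not tested.

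**Figure D4:**
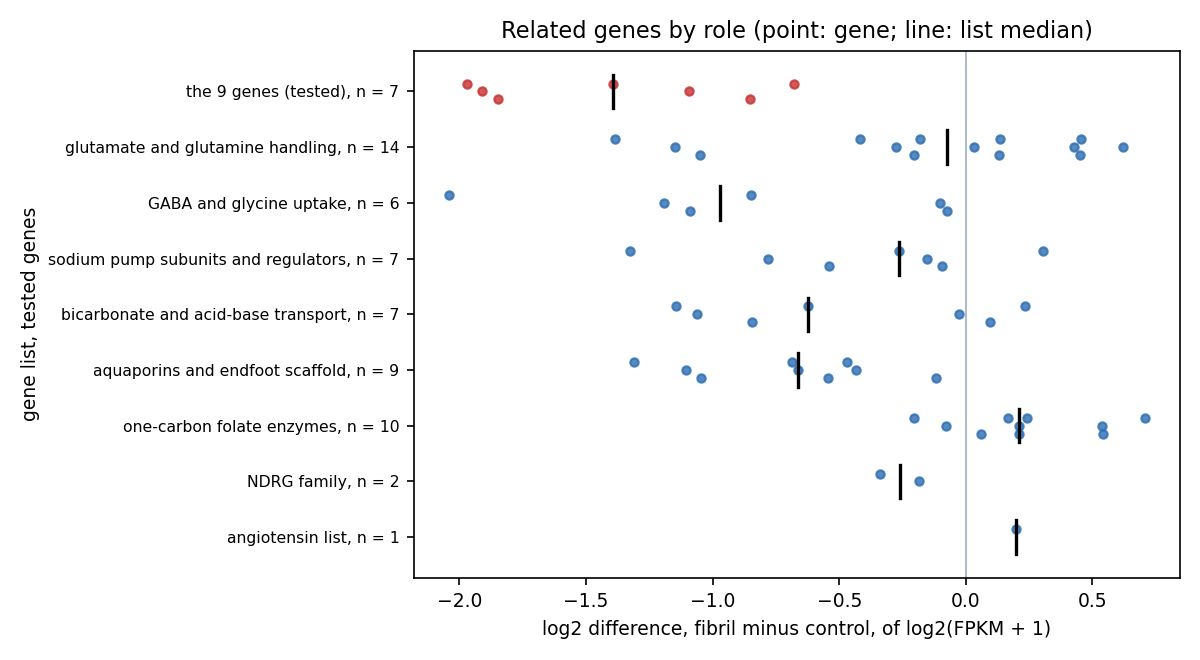
Log2 difference, fibril minus control, of log2(FPKM + 1) for each tested gene of the set (red) and of 8 lists of related genes (blue), with the list median as a black line. The tested genes of the set have a median of -1.40, and the folate list (0.21) and the single angiotensin-list gene (0.20) lie above 0.

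By design the 5 genes whose values most resembled the mean standardised profile of the 7 tested genes over the 6 libraries were Rab31, S1pr1, Nrarp, Arhgef26 and Smim3, with Pearson correlations of 0.991, 0.983, 0.977, 0.966 and 0.946. The profile mainly separates the groups, so these are genes with a narrow spread in each. Rab31, a small GTPase of vesicle traffic, had 93.6, 91.0 and 105.5 FPKM without fibrils and 45.3, 44.1 and 41.4 FPKM with them. S1pr1, a sphingosine 1-phosphate receptor, had 3.81, 3.82 and 3.98 FPKM against 1.16, 0.578 and 0.652 FPKM. Within the set, Slc4a4 (0.973), Atp1b2 (0.970) and Glul (0.935) followed the mean profile most closely and Aqp4 (0.454) least. Each of these genes is itself part of that mean, which raises its correlation.

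The set's name was set against cell type markers. The 4 most abundant precursor markers were Olig1 (162 to 636 FPKM over the 6 libraries), Olig2 (198 to 733 FPKM), Gpr17 (78.5 to 463 FPKM) and Sox10 (135 to 332 FPKM). Chosen after their values were seen, Cspg4 ranged from 3.22 to 98.8 FPKM, with both replicate 1 libraries lowest, and Neu4 was below 1 FPKM in all 6. Among other astrocyte markers, Gfap was below 1 FPKM in all 3 controls and Gjb6 and Cbs were listed at 0 in all 6 libraries, while the 4 most abundant were Fabp7 (462 to 1448 FPKM), Mfge8 (20.1 to 222 FPKM), Aldoc (66.6 to 181 FPKM) and Vim (18.0 to 76.2 FPKM). Sparcl1 (5.07 to 76.9 FPKM), S100b (at least 6.69 FPKM) and Nfia (4.28 to 48.3 FPKM), chosen after their values were seen, were above 1 FPKM in every library too. Some of these markers were thus listed at 0, which can be an estimate that failed, or were below 1 FPKM in the controls. Others were above 1 FPKM in every library, and bulk values cannot assign the 9 genes to a cell type. The name refers to their known expression. The other astrocyte list had 16 tested genes of 22, with 12 lower, 4 higher and a median of -0.70. Its summed level ran from 1170 to 1825 FPKM without fibrils and from 763 to 1250 FPKM with them. Much of that sum was Fabp7 alone, at 586 to 1448 FPKM without fibrils and 462 to 983 FPKM with them, with overlap. In this astrocyte list 5 tested genes were lower without overlap (Sparcl1, Gja1, Acsbg1, Nfia and Id4) and 1, Gfap, was higher. The fibril mean was 22.2% of the control mean for Sparcl1 and 37.1% for Nfia. With or without the block, 0 genes of the list passed the threshold. Gfap, not among the 4 most abundant, was higher with fibrils in every replicate number. It had 0.643, 0.370 and 0.733 FPKM without fibrils and 3.69, 6.20 and 24.8 FPKM with them.

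For markers of other cell types the sums are given by group, over every listed gene found in the deposited table, tested or not. Of 10 tested markers of differentiating oligodendrocytes (14 listed) all were higher, with a median of 2.18. The sum of this list ran from 337 to 842 FPKM without fibrils and from 2227 to 4091 FPKM with them. By limma with the replicate block, 3 of the tested markers rose (adjusted p = 0.0267 for Mbp and Mag and 0.0435 for Enpp6). Precursor markers (10 tested of 12) were lower in 8, with a median of -0.53 and sums of 1773 to 2793 FPKM against 1337 to 1753 FPKM. Microglia and macrophage markers (8 tested of 13) were higher in 6, with a median of 1.05 and sums of 1.98 to 62.4 FPKM against 15.4 to 97.8 FPKM; C1qa, C1qb and C1qc were at 0 in replicate 1 of both groups. Neuron markers (12 tested of 14) were lower in 11, with a median of -0.66 and sums of 306 to 633 FPKM against 137 to 428 FPKM. Endothelial and mural markers had 0 tested genes of 13 and sums of at most 0.884 FPKM, with 4 at 0 throughout. The part of any of these markers in the differences of the 9 genes was not tested.

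**Figure D5:**
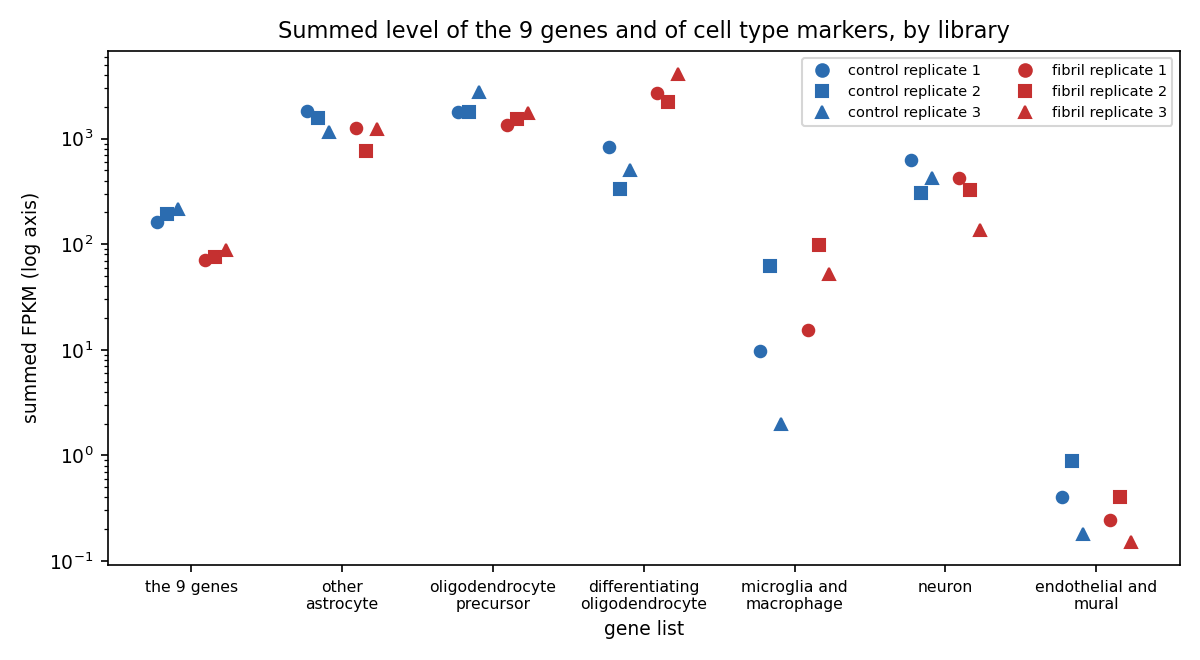
Summed FPKM (log axis) of the 9 genes and of 6 lists of cell type markers in each library (control blue, fibril red, with 1 marker shape for each replicate number). The sum of the 9 genes is 162 to 216 FPKM without fibrils and 70.7 to 88.6 FPKM with them, and the differentiating oligodendrocyte sum is higher in every fibril library than in every control.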

How the data were processed

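The deposited table holds FPKM values made by the authors, 1 column per library, per the file headers, for 32662 rat genes with Ensembl identifiers. The submitters' processing notes name Trimmomatic and FastQC only. Which aligner, quantifier and build were used is not given in the sources used here. Every column of values matched 1 sample by its title.

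The 10766 genes reaching 1 FPKM in 3 or more libraries were tested as log2(FPKM + 1) with limma 3.58.1 in R 4.3.3 (mean-variance trend, two-sided, Benjamini-Hochberg over all tested genes, threshold 0.05). No count model was run, since FPKM are not counts. The worth of 1 fragment is relative and was read from ratios of values below 1 FPKM.

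Both groups carry replicate numbers 1 to 3. The fit as reported used no block and did not treat the numbers as pairs. Deviations from group means correlated between same-numbered libraries at 0.747, 0.364 and 0.216. The adjusted p with the replicate number as a block is therefore printed beside that of each tested gene of the set. The labels state no pairing, and in 2 of 3 numbers another pair correlated more (0.500 for control 3 and fibril 2, 0.433 for control 2 and fibril 3).

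The members and lists were chosen with earlier results of these data known. Named genes were the 9 members, the 2 smallest p-values of each functional list (mean of at least 1 FPKM) unless a member passed the threshold, the 4 most abundant of each marker list and the 5 most alike in profile; others are marked in the text, and a few genes that this rule names are not reported here.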

Additional observations from a re-analysis of the deposited data

How the results depend on the processing

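Across the 17 alternatives, 0 of the tested genes of the set passed an adjusted p of 0.05 by limma, and each tested value stayed negative. The set had 7 tested genes, except 9 without a filter and 4 at a filter of 5 FPKM. Adjusted p ran from 0.088 to 1.00 for Slc4a4 and from 0.143 to 1.00 for Slc1a3. With the replicate block, a term for replicate 1 or another filter, each gene's difference is the same by construction, and 0 members were called. Over all genes the count of calls moved: 12 higher and 0 lower with the replicate block, 18 higher and 1 lower with a term for replicate 1, and 3 higher without fibril replicate 3 (0 to 3 higher over the 6 fits that leave out 1 library). The block with scaling without mitochondrial genes gave 1 higher, and the block with quantile normalization gave 13 higher and 2 lower; these 2 combinations were chosen after the data were seen. The median difference of -1.40 became -0.95 at a pseudocount of 5, -1.09 without a filter, -1.25 at the 5 FPKM filter, -1.59 under quantile normalization with or without the block, and -1.70 under scaling without mitochondrial genes with or without the block. It ran from -1.60 to -1.21 when 1 library was left out. At pseudocounts of 0.1 and 5, Slc1a2 had -3.43 and -0.95 and Slc4a4 -3.44 and -0.76, since their fibril values are near 0; depth is unknown, and how precise these low values are was not tested.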

Other observations

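The 3 genes here were chosen from the related lists after their values were seen. Slc7a11 and Fxyd1 were below the filter and not tested, and Gja1 did not pass the test. Slc7a11, which encodes the cystine and glutamate exchanger, had 0.378, 0.0153 and 0.0749 FPKM in control replicates 1, 2 and 3 against 3.03, 1.34 and 0.120 FPKM in the fibril replicates, with overlap. Fxyd1, a regulator of the sodium pump, had 2.55, 0.709 and 0.872 FPKM in controls against 0, 0 and 0.692 FPKM with fibrils. Gja1, which encodes the main astrocyte connexin, had 17.2, 3.78 and 6.69 FPKM without fibrils and 3.15, 0.704 and 1.77 FPKM with them, and its highest library in both groups was replicate 1, as for Aqp4.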
